A study of Mus musculus with 4 samples.

Results

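RUNX1 ChIP-seq peaks were examined in floating hematopoietic progenitors that had been differentiated from mouse ESCs, and the sites described here are the distal RUNX1 peaks found in the library labelled -DOX but not in the library labelled +DOX. All cells, in both conditions, carried a Tet-on transgene for a dominant-negative FOS peptide (dnFOS), which keeps AP-1 off the chromatin once Doxycycline is given. The labels give the cells as day 2 floating progenitors, 1 library with Doxycycline and 1 with none. The run name inside each RUNX1 peak list gives the opposite treatment to its sample label, so every direction below holds for the labels only and turns round if the run names are right. The members were selected on their presence in one list and absence from the other: 2070 of 18052 chr1-19 peaks of the library labelled -DOX overlapped no peak of the other list by 1 bp and had a summit over 1500 bp from every mm10 transcription start of GENCODE. With a -log10 q from peak calling of at least 5, a stricter limit than the authors' q-value threshold of 0.05, 932 members were left.

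RUNX1 is the DNA-binding subunit that pairs with CBFβ and is needed for blood cells to emerge from hemogenic endothelium. It binds enhancers together with other factors. GATA1 and GATA2 act in stem, erythroid, megakaryocytic and mast cells, and form a complex with TAL1 that reads a GATA motif and an E-box arm on one side of the double helix. PU.1, an ETS family factor, and the C/EBP factors act in macrophages and granulocytes. AP-1, the dimer of FOS and JUN family proteins, joins the response to outside signals to these enhancers.

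The sequences at 7 members are given as examples, which were chosen for the motifs they hold and do not stand for all members. They were the strongest members next to genes of stem cell, erythroid or megakaryocyte lists that had a GATA consensus (AGATAA) or a RUNX consensus (TGTGGTT), and the strongest members with the GATA-E-box composite, a CTG placed 8 bp before the GATA consensus. Members under H3K27me3 peaks, in UTRs or with over 50% of soft-masked bases were not taken. Each line gives 150 bases of the + strand of mm10 around the summit. Capitals mark the GATA and RUNX consensus on either strand and the CTG arm of a composite. The Alad window, chr4:62516683-62516832, lies in an intron of the gene for the heme synthesis enzyme ALA dehydratase. The Dmtn window, chr14:70623967-70624116, lies in an intron of the gene for dematin, a protein of the red cell membrane skeleton. The Etv6 window, chr6:134120079-134120228, lies in an intron of the gene for an ETS family repressor that stem cells need. The Gnaz window, chr10:74987852-74988001, lies in an intron shared by transcripts of Gnaz, the gene for a G protein subunit of platelets, and Rsph14. The Kit window, chr5:75433043-75433192, is intergenic, upstream of the gene for the stem cell factor receptor. The composite windows are in an intron of Slc24a4, a cation exchanger gene, at chr12:102154897-102155046, and in an intron of the noncoding gene 5430401H09Rik, nearest to Prkar2b, at chr12:32111047-32111196.
Alad: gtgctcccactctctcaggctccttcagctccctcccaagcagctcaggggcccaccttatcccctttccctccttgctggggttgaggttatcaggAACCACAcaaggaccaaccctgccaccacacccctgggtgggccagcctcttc
Dmtn: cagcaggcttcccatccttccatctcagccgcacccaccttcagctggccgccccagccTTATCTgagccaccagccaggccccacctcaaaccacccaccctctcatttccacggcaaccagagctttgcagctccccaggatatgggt
Etv6: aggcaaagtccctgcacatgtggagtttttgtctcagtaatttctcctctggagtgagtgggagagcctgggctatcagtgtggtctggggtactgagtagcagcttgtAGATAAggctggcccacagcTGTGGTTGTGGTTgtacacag
Gnaz: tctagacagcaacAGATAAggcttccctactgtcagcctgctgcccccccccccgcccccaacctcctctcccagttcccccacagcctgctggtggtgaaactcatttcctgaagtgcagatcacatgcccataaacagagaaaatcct
Kit: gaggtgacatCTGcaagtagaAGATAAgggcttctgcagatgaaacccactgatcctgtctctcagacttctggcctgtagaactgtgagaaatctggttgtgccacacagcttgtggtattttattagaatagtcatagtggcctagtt
Slc24a4: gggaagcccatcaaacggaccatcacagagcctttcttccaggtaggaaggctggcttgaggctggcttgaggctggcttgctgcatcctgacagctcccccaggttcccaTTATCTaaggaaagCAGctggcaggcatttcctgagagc
Prkar2b: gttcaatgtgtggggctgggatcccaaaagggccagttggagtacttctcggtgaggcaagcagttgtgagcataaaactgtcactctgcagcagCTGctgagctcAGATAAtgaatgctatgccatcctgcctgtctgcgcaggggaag
The Etv6 window held 2 overlapping RUNX matches, 54 to 66 bases after the summit, and a GATA match 34 to 39 bases after it. In the Kit window the composite lay 65 to 49 bases before the summit. The Alad window had a RUNX match 22 to 28 bases after the summit and no AGATAA, but a broader GATA match, TGATAA, stood 14 to 19 bases after the summit.

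The library labelled -DOX had 18535 peaks and the other 21978, and since no tag counts were analysed here their depth is unknown. With 1 library per condition no test between conditions was possible. The intervals in the text are 95% intervals for counting error over sites, Wilson for a share and Newcombe for a difference, and do not cover the spread between cultures or libraries. A different depth, a different antibody yield and the treatment cannot be told apart. Of all chr1-19 peaks of the library labelled -DOX 19.8% had no overlap with the other list (3583 of 18052), and of its distal peaks 28.9% (2070 of 7168). At a -log10 q of at least 5 it was 17.7% of the distal peaks, 932 of 5268. In the other direction 45.5% of the distal peaks of the library labelled +DOX (4245 of 9339) overlapped none of the library labelled -DOX. Thus, the members were the smaller of both exclusive sets.

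The members were mostly weak peaks. Their -log10 q ran from 1.33 to 44.1 with a median of 4.56 (quartiles 3.57 and 6.44), whereas the 5098 distal peaks of the same library that overlapped the other list had a median of 10.7. Fold enrichment over the local background had a median of 4.13 among members and 5.81 among the overlapping peaks. The median member stood at percentile 19.5 of its own list, the median overlapping peak at percentile 61.6. These values come from the library that chose the members and are a description. The plot of peak strength shows how far the members lie inside the lower part of the range. Only 136 members reached a -log10 q of at least 10.

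**Figure D1:**
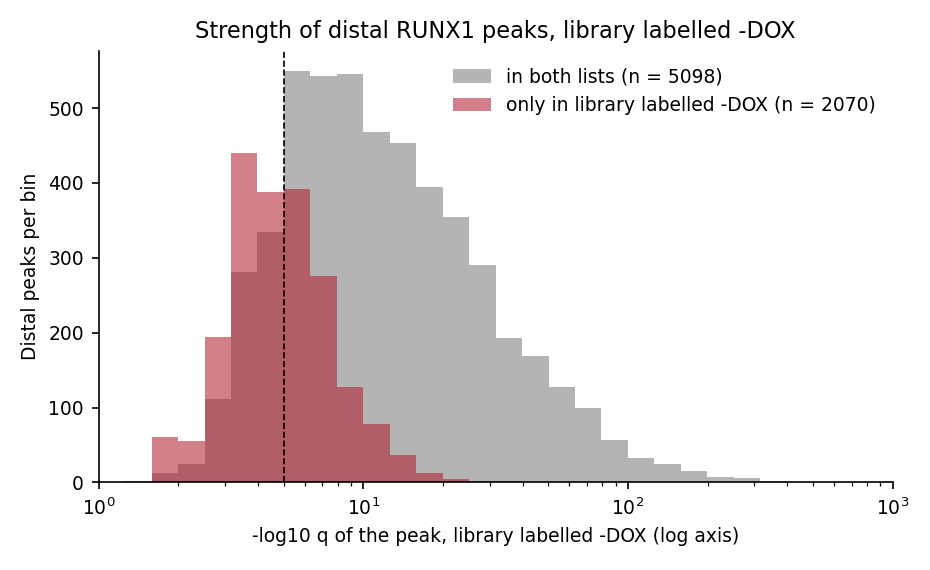
Number of distal RUNX1 peaks of the library labelled -DOX per bin of -log10 q (log axis), for the 2070 members (red) and the 5098 peaks that overlap the other list (grey); the dashed line is at 5. The members peak at lower values, with a median of 4.56 against 10.7.

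At the edges of the rule, the member nearest to a transcription start lay 1503 bp from it and had a -log10 q of 3.04, and the farthest unshared peak that was not distal lay at 1495 bp with 3.38. The smallest gap between a member and a peak of the other list was 3 bp, at a member with a -log10 q of 4.03, and the smallest overlap that kept a distal peak out was 2 bp, with a -log10 q of 3.17. For most members the other library had no call nearby. The gap to the nearest peak of the other list had a median of 18832 bp, and 183 members (8.84%) had one within 1000 bp. For the distal peaks only in the library labelled +DOX, measured to the shorter -DOX list, these values were 24314 bp and 5.25%. Members were also mostly alone, as 127 (6.14%) had another member within 10000 bp.

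Members lay where distal RUNX1 sites of the other classes lay. Introns held 48.0% of the summits (994) and intergenic sequence 46.7% (966), with 2.51% in UTRs, 1.69% in coding exons and 1.11% in exons of noncoding genes. Among the overlapping distal peaks introns held 49.5%, and among the distal peaks only in the library labelled +DOX 48.5%. The nearest protein-coding transcription start lay at a median of 22780 bp (quartiles 9058 and 57595), against 23314 and 22735 bp in the other classes. The share of distal peaks that were members ran from 22.2% to 33.9% between chromosomes.

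A GATA consensus was found in the 200 bp around the summit of 496 members, 24.0% (22.2 to 25.8). In windows shifted by 2000 bp to either side of the same sites the share was 10.7%, and it was 13.2% of all 200 bp tiles of chr1-19. The overlapping distal peaks had the same consensus at 23.5% (22.4 to 24.7), a difference of 0.42 percentage points whose interval, -1.72 to 2.63, holds 0. The distal peaks only in the library labelled +DOX had it at 12.3% (11.3 to 13.3), close to the 11.2% of their own shifted windows, and the members minus these peaks came to 11.66 points (9.60 to 13.78). With a -log10 q of at least 5 the shares were 28.3% at members, 25% at overlapping peaks and 12.5% at peaks only in the other library. The members minus the overlapping peaks then came to 3.28 points (0.19 to 6.52), an interval without 0, and minus the peaks only in the other library to 15.78 points (12.66 to 19.01).

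RUNX, the motif of the precipitated factor itself, was at 390 members, 18.8% (17.2 to 20.6), against 4.30% of their shifted windows. The overlapping peaks had it at 25.3%, and the members minus these peaks came to -6.48 points (-8.51 to -4.38). The peaks only in the library labelled +DOX had it at 23.7%, and here the difference was -4.83 points (-6.92 to -2.69). A shorter RUNX consensus, TGTGGT or TGCGGT, was at 40.0% of the members, 52.6% of the overlapping peaks and 47.3% of the peaks only in the other library, with 15.7% of the members' shifted windows. Both GATA and RUNX were at 107 members (5.17%), against 0.386% of the shifted windows. RUNX was at 21.6% of the members with GATA (18.2 to 25.4) and at 18.0% of those without (283 of 1574), and the intervals overlap. Of the members, 937 (45.3%) had none of the GATA, RUNX and ETS consensus, compared to 72.7% of the shifted windows.

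The myeloid motifs went the other way. PU.1 (GAGGAAGT) was at 50 members, 2.42% (1.84 to 3.17), against 1.09% of the shifted windows. It was at 6.65% of the overlapping peaks and at 10.4% of the peaks only in the library labelled +DOX, and the members minus these peaks came to -7.95 points (-9.06 to -6.79). C/EBP (TTGCNNAA) was at 6.81% of the members, below the 8.02% of their shifted windows, and at 11.4% of the peaks only in the library labelled +DOX. The general ETS motif (CAGGAA or CCGGAA with an A or G after it) was at 28.0% of the members, 36.6% of the overlapping peaks and 32.3% of the peaks only in the other library, with 14.2% in the members' shifted windows.

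AP-1 (TGACTCA or TGAGTCA), the motif of the factors that dnFOS keeps off the chromatin, was at 106 members, 5.12% (4.25 to 6.16), against 3.53% of the shifted windows. It was at 7.04% of the overlapping peaks and 9.96% of the peaks only in the library labelled +DOX, and the members minus the latter came to -4.84 points (-6.12 to -3.49). Of the members with AP-1, 32 had it in the extended form bound by NF-E2 and MAF dimers, an erythroid and megakaryocytic factor and its partners, which is 1.55% of the members and 0.217% of the shifted windows. The extended form was at 1.12% of the overlapping peaks and 1.30% of the peaks only in the library labelled +DOX. The members minus these came to 0.43 points (-0.13 to 1.11) and 0.25 points (-0.34 to 0.95), and both intervals hold 0. Without the extended form, AP-1 was at 3.57% of the members (2.86 to 4.46), and at 3.31% of their shifted windows. The same remainder was 5.92% at overlapping peaks and 8.67% at peaks only in the library labelled +DOX. KLF (CCACACCC), the motif of the erythroid factor KLF1 and its relatives, was at 3.91% of the members, against 1.55% of the shifted windows, and at 2.98% and 2.76% of the overlapping peaks and the peaks only in the other library. MYB (CAACTG) was at 11.3% and STAT (TTCCNGGAA) at 0.773%, against 9.78% and 0.483% of the shifted windows, and TEAD (GGAATG) was at 248 members, 12%, against 10.2%.

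**Figure D2:**
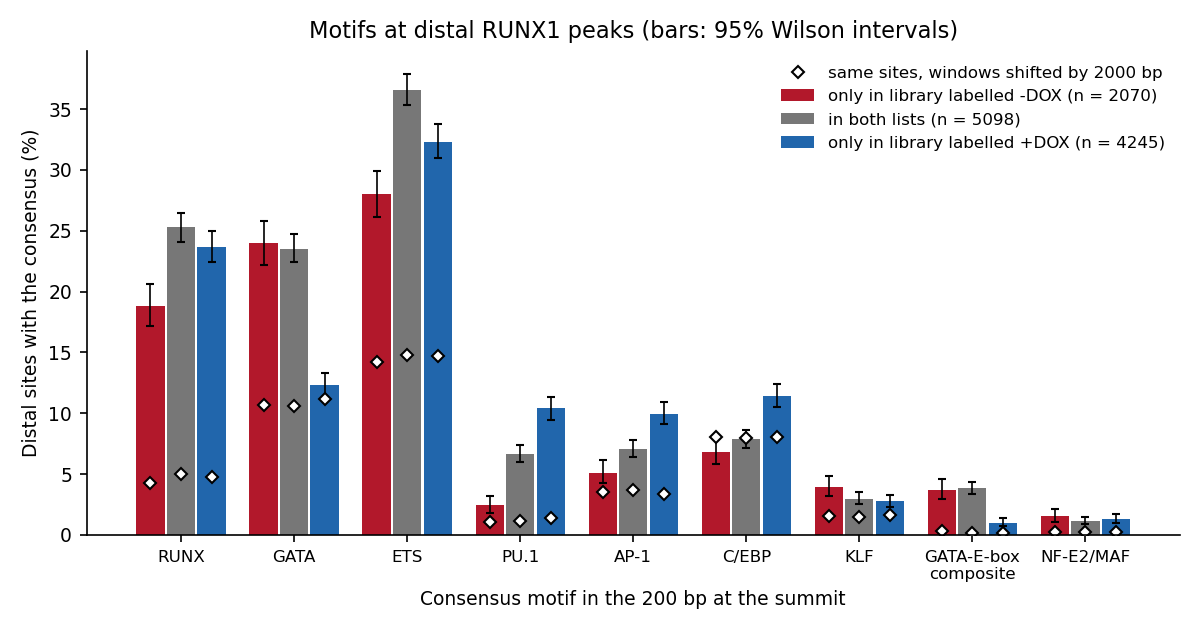
Share of distal RUNX1 sites with each consensus in the 200 bp at the summit, for members (red, n = 2070), peaks in both lists (grey, n = 5098) and peaks only in the library labelled +DOX (blue, n = 4245), with 95% Wilson intervals; diamonds are windows of the same sites shifted by 2000 bp. GATA is at 24.0% of the members and 23.5% of the peaks in both lists against 12.3% of the blue class, and PU.1 at 2.42%, 6.65% and 10.4%.

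The composite of GATA and the E-box arm, the element that GATA factors and TAL1 occupy together, was at 76 members, 3.67% (2.94 to 4.57), and at 0.290% of the shifted windows. The overlapping peaks had it at 3.83% and the peaks only in the library labelled +DOX at 1.01%, and the members minus the latter came to 2.66 points (1.85 to 3.60). One spacer length stood out. A CTG stood 8 bp before the GATA consensus at 76 members, whereas the other spacers between 2 and 20 bp were found at 10 to 33 members each, with a median of 16.0. The E-box alone (CAGCTG or CAGATG) was at 31.3% of the members, against 23.2% of the shifted windows and 30.7% of the peaks only in the library labelled +DOX.

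The GATA matches were centred on the summit. Within 40 bp of it 3.48% of the members had a match per 20 bp, against 1.11% beyond 300 bp, a ratio of 3.13. At the peaks only in the library labelled +DOX the ratio was 1.35, and at the overlapping peaks 2.89. For RUNX the ratio was 5.74 at members, 8.07 at overlapping peaks and 6.73 at peaks only in the other library. PU.1 rose 2.33 times at the centre of members, but from so few sites that the curve is uneven, and 9.01 times at the peaks only in the library labelled +DOX.

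**Figure D3:**
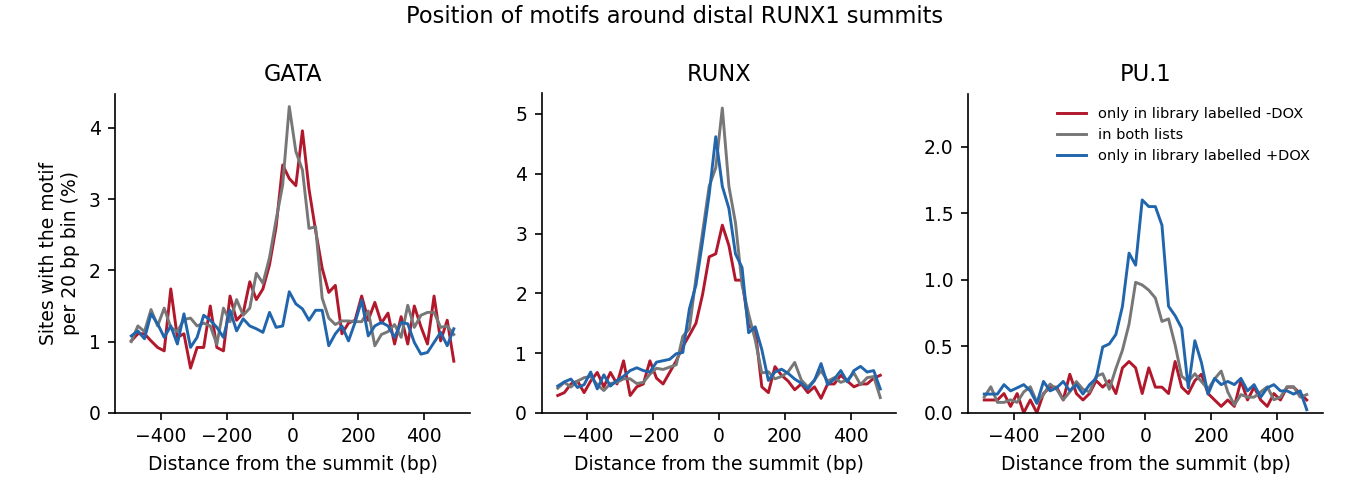
Share of sites with a motif per 20 bp bin against the distance from the summit, for members (red), peaks in both lists (grey) and peaks only in the library labelled +DOX (blue). GATA has a higher central maximum at members (3.48% per bin within 40 bp) than at the blue class (1.48%); PU.1 shows the reverse order.

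Stronger members carried GATA more often. When the members were cut into 4 equal parts by -log10 q, from weak to strong, GATA was at 20.1%, 20.7%, 22.8% and 32.3% (28.4 to 36.5). The composite was at 3.47%, 2.32%, 2.70% and 6.19%. Over the same parts RUNX was at 16.6%, 20.1%, 17.8% and 20.9%, and PU.1 between 1.93% and 2.90%, with overlapping intervals throughout. GATA also went up with strength at the overlapping peaks, from 15.9% and 23.1% to 27.6% and 27.6%. In the parts of the peaks only in the library labelled +DOX GATA stayed between 10.7% and 14.5%, while RUNX was at 16.9% in the weakest and 30.9% in the strongest part and PU.1 at 6.78% and 14.5%. The strength used here is the library's own and orders sites only within a class.

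**Figure D4:**
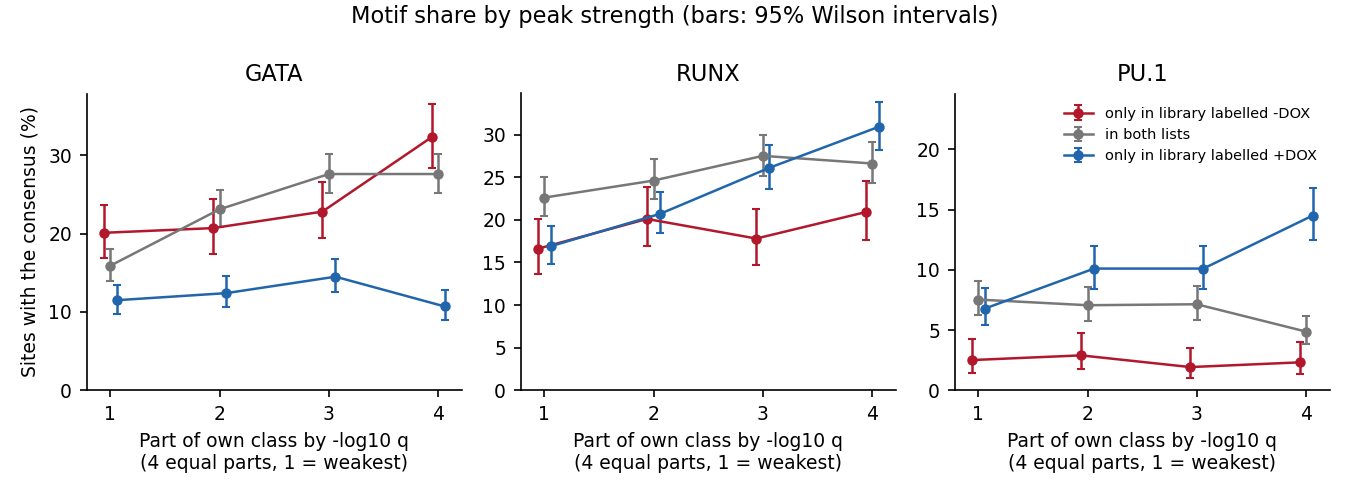
Share of sites with GATA, RUNX or PU.1 (95% Wilson intervals) in 4 equal parts of each class by -log10 q, from weakest to strongest. GATA goes from 20.1% to 32.3% at members (red) and PU.1 from 6.78% to 14.5% at the peaks only in the library labelled +DOX (blue).

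Base composition moves with GATA, so the classes were also split by the GC content of the window. In the lower, middle and upper part GATA was at 27.6%, 28.0% and 14.3% of the members, at 28.9%, 26.9% and 15.8% of the overlapping peaks and at 16.5%, 11.2% and 7.65% of the peaks only in the library labelled +DOX. The members thus had the higher share than the latter in each of the 3 parts.

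The very strongest members were of another kind. Of the 10 with the highest -log10 q, 7 lay under a peak of either H3K27me3 list, libraries whose labels give H3K27me3 as the antibody while their protocol text names one against RUNX1, and 5 had over 50% of soft-masked bases. The first was 411385 bp upstream of Chd6, at chr2:161520281-161520543, with a -log10 q of 44.1, a GC content of 8% and no motif of those searched. Similar AT-rich sites lay 12783 bp upstream of Cenpf (36.3, with 12.5% GC) and in an intron of Galntl6 (32.5, with 17.0% GC). A further one lay 181286 bp upstream of Casp1 (27.8, with 8.50% GC). Another such site in an intron of Adgrb3 had a -log10 q of 21.2 with 17.0% GC, and sites near Alox8 (24.4) and Tmem121 (21.2) lay under H3K27me3 peaks with 51.5% and 51.0% GC. The part of H3K27me3 signal or repeats in these calls was not tested. Over all members 131 (6.33%, 5.36 to 7.46) lay under an H3K27me3 peak, against 12.1% of the overlapping peaks and 3.56% of the peaks only in the library labelled +DOX. GATA was at 9.16% of these 131 and at 484 of the other 1939.

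The 3 remaining sites of the first 10 held a GATA consensus. The strongest, with a -log10 q of 28.4, lay 405876 bp downstream of the start of Cntnap4 and also held RUNX and ETS. Another, at 22.2, lay in Asb7, in an exon outside the coding sequence, and held GATA and RUNX. The third lay at chr8:122321688-122321983 in an intron of Zfpm1, which encodes FOG1, the cofactor of GATA factors in red cells and platelets. It had a -log10 q of 19.7, a fold of 5.75 and a GATA match, and by distance its nearest protein-coding start was that of Trhr2. When members under H3K27me3 peaks or with over 50% of soft-masked bases were set aside, a choice made after the values were seen, 1719 (83.0%) were left. The next of these in strength lay in introns of Rcor1 (18.4), a corepressor subunit, Alad (17.5) and Tacc1 (17.2), upstream of Cacna1e (17.2), Acot11 (17.0), Selenok (17.0) and Exoc7 (17.0). GATA was found at Rcor1, Tacc1 and Cacna1e, and not at Acot11, Selenok or Exoc7.

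By the nearest protein-coding start the members fell to 1780 genes, 8.59% of the 20733 on chr1-19. Of these 1552 had 1 member, 228 had 2 or more and 39 had 3 or more. Of the 1780 genes, 39.8% were also next to an overlapping distal peak, against 17.2% of all genes, and 1071 were not. A peak only in the library labelled +DOX was nearest to 678 of them (38.1%, and 21.1% of the genes next to such a peak), against 15.5% of all genes. By this rule a gene with a longer distal stretch around it can collect more sites of every class. The shares of all genes were not adjusted for that. The nearest gene need not be the one a site acts on, and no expression was measured here.

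Among the genes with most members stood Runx1 itself, with 5. Their -log10 q ran from 3.15 to 6.31, the strongest at chr16:92708870-92709110 in an intron with a GATA match. GATA was at 2 of the 5 and RUNX at 0. The same gene was nearest to 8 overlapping distal peaks and to 6 only in the library labelled +DOX, so the members were one part of a large group of sites. Smad7, an inhibitor of TGF-β signalling, also had 5, from 3.35 to 15.1, beside 3 overlapping peaks and 3 only in the library labelled +DOX. The Smad7 members lay 10746 to 105109 bp from its start, some of them in introns of Dym and Ctif. Zfp36l1, an RNA decay factor, had 4 (3.17 to 6.0), without GATA or RUNX. These lay 55470 to 380114 bp from its start, among them sites in introns of Rad51b and Actn1. Ighv6-5, a gene among the immunoglobulin heavy chain variable segments, had 9 members spread over 127739 to 801036 bp. Gm21119, Gm15319 and Pcdh9 had 5 each and Zfp386 and Zfp990 had 4 each. The Zfp386 members lay 197208 to 796041 bp from its start, among the same variable segments as those of Ighv6-5. Their nearest starts of any gene type were those of Ighv8-7, Ighv1-62-1, Gm6105 and Ighv1-76. All 4 members next to Sfi1 lay under H3K27me3 peaks.

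Genes of the red cell, platelet and stem cell lists were next to 44 members, 2.13% (1.59 to 2.84), at 32 of 135 genes. These genes take 0.945% of the distal bases of chr1-19 by the same rule. The overlapping peaks had 2.77% (2.35 to 3.25) and the peaks of the library labelled +DOX alone 1.55% (1.22 to 1.97), an interval that overlaps that of the members. At a -log10 q of at least 5 there were 20 sites, 2.15%. Of the 44, 16 held GATA, 10 RUNX and 22 at least one of both, while GATA was at 24.0% and RUNX at 18.8% of all members.

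The erythroid list had 13 members at 12 of 55 genes, 0.628% (0.367 to 1.07), against 0.647% of the overlapping peaks and 0.330% of the peaks only in the library labelled +DOX. In strength Alad (-log10 q of 17.5, fold of 6.84) and Dmtn (16.5, fold of 5.72) came first, 3136 and 2113 bp downstream of the start. Tmod1, which caps actin filaments in the red cell skeleton, followed at 6.75, and Tmcc2 at 6.66 with a RUNX match. A member at 6.62 stood 6026 bp upstream of Hbb-y, the embryonic globin gene, at chr7:103859175-103859353, with GATA and AP-1 matches. Mgst3, a glutathione transferase gene, had one at 6.57. None of the 13 lay under an H3K27me3 peak, against 6.33% of all members, a share that 13 sites are too few to tell from 0.

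The megakaryocyte and platelet list had 18 members at 12 of 42 genes, 0.870% (0.551 to 1.37), against 0.824% and 0.495% in the other classes. The strongest were at Gnaz (9.04), at Pdgfb, a growth factor gene (7.69), and 5210 bp upstream of Vwf, the gene for von Willebrand factor (7.43). The Pdgfb site was soft-masked over 100% of its window and lay under an H3K27me3 peak. Rab27b, which serves platelet granule release, had one at 6.07 with RUNX. GATA was at 7 of the 18 and RUNX at 5, against 24.0% and 18.8% of all members.

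The list of stem and progenitor regulators had 13 members at 8 of 38 genes, 0.628% (0.367 to 1.07), and here the overlapping peaks had more, 1.29% (1.02 to 1.64), and the peaks only in the library labelled +DOX 0.730%. Its genes take 0.429% of the distal bases, a value inside the members' interval. Etv6 (12.6) and Kit (8.74) led. The Kit site was 141798 bp from the start of Kit and 151855 bp from the nearest peak of the other list. Runx1 followed at 6.31, Runx2 had sites at 5.30 in Runx2 and in the neighbouring Supt3, and a site at 4.97 lay 3626 bp upstream of Tal1, with an ETS match and no GATA. GATA was at 5 of the 13 and RUNX at 1, against 24.0% and 18.8% of all members.

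The mast cell, basophil and eosinophil list had 1 member, at Alox15 (3.17), which is 0.0483% (0.00853 to 0.273) against 0.137% (0.0665 to 0.283) and 0.212% (0.112 to 0.402) in the other classes, with overlapping intervals. The neutrophil and macrophage list had 11, 0.531% (0.297 to 0.949), at 8 of 69 genes. It stood beside 0.608% and 0.471% in the other classes and 0.305% of the distal bases, which lies inside the members' interval. Its first sites were at Laptm5, a lysosomal protein gene of blood cells (12.1), Egr1, an immediate early gene (11.3), and Adgre1, the gene of F4/80 (7.11). Of these 11, 5 held GATA and 0 held PU.1, against 24.0% and 2.42% of all members. Over 11 sites, 0 cannot be told from 2.42%. The lymphoid list had 3 members, at Klrb1c (3.15), Foxo1 (3.10) and Cd5 (1.92), which is 0.145% against 0.448% of the peaks only in the library labelled +DOX, with overlapping intervals.

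Genes of the endothelium, the tissue from which blood progenitors emerge, had 16 members at 9 of 43 genes, 0.773% (0.476 to 1.25), against 0.765% and 0.400%. Their share of the distal bases was 0.376%, so members exceeded it here as well. The strongest had as nearest gene Ets1 (9.39, under an H3K27me3 peak), Kdr, the VEGF receptor gene (8.92), and Cdh5, the gene of VE-cadherin (7.55, with the composite, RUNX and ETS). They lay far off, at 209242, 77842 and 287122 bp from the respective start. The cytokine receptor and JAK-STAT list had 5 members, 0.242% (0.103 to 0.564), against 0.294% of the overlapping peaks and 0.283% of the +DOX-only peaks. These 5 lay next to Kit, Csf2rb, Lif and Cish. The Csf2rb sites, at 6.44 and 3.69, were upstream of the gene for the shared β chain of the IL-3 receptor family. The AP-1 list had 1, at 3.84, 109000 bp upstream of Jun, which is 0.0483% (0.00853 to 0.273) against 0.196% (0.107 to 0.361) of the overlapping peaks and 0.259% (0.145 to 0.463) of the +DOX-only peaks, with overlapping intervals.

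For contrast, lists of other tissues were counted. Mesoderm, cardiac and smooth muscle genes had 6 members, among them Gata6 (16.0, in an intron), Hand2 (9.39) and Mef2a (5.37), these 3 with GATA. That is 0.290% (0.133 to 0.631) against 0.192% of the distal bases, and 0.429% at a -log10 q of at least 5. Pluripotent cell genes had 2, Tfcp2l1 and Nr5a2, each at 3.85, and neuronal genes 2, Gad1 (11.8) and Nlgn1 (6.07), which is 0.0966% in both cases, against 0.213% and 0.364% of the distal bases. The plot of gene lists shows that the intervals of the members and of the peaks only in the library labelled +DOX overlap in every list.

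**Figure D5:**
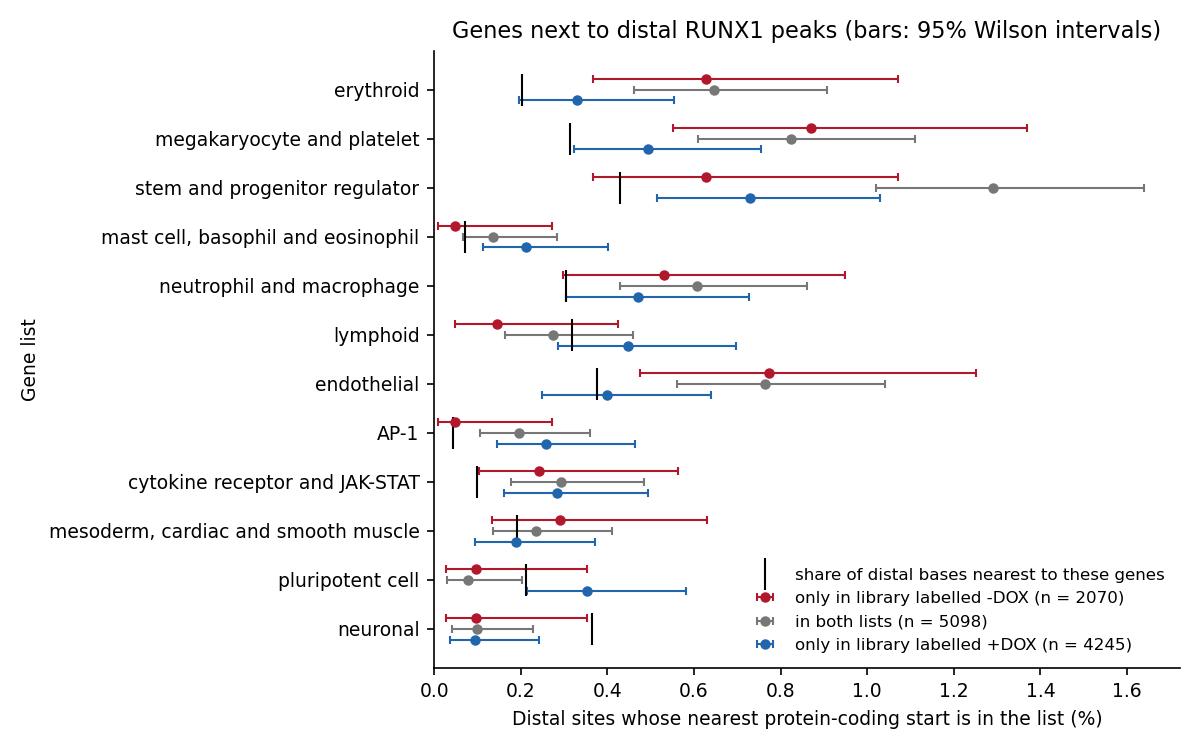
Share of distal sites whose nearest protein-coding start belongs to each of 12 gene lists, with 95% Wilson intervals, for members (red), peaks in both lists (grey) and peaks only in the library labelled +DOX (blue); black ticks give the share of distal bases nearest to the same genes. Members lie at 0.628% for erythroid genes against 0.202% of the bases, and the red and blue intervals overlap throughout.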

How the data were processed

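RUNX1 was precipitated from double-crosslinked (DSG and formaldehyde) chromatin, with 1 library per condition and no replicate. Read trimming by the authors used Trimmomatic, alignment was to mm10 by Bowtie2 (2.2.9 in the submitters' processing notes, another version in the methods), duplicates were removed with Picard and peaks came from MACS2 (2.1.1) for each library alone, at a q-value threshold of 0.05. An input control is not given in the sources used here. The deposited peak lists hold the fold enrichment over the local background as a ratio, the -log10 of the p-value and of the q-value, and, as another column, the summit offset. These values were used to rank or filter peaks within a list. Depth is unknown because the lists carry no tag counts. Conditions were taken from the labels, which disagree with the run names of the RUNX1 lists. The 2 H3K27me3 libraries, whose title and treatment contradict each other, were put in no condition and used only to mark overlaps.

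Overlaps, distances and motifs were computed in Python 3.11.15 with numpy 2.4.6 and pandas 2.3.3, on GRCm38.p6 with GENCODE's annotation; figures were drawn with matplotlib 3.10.9. The functions were tested on simulated data. In all 13 consensus motifs were searched, reading either strand, in 200 bp centred on the summit; PU.1 lies within ETS, the composite within GATA and NF-E2/MAF within AP-1. Members and the 12 gene lists were chosen with earlier results of these data known. Named genes were those nearest to the 10 strongest members, the 10 genes with most members, and the first 3 sites of each list (6 for blood stem, erythroid, megakaryocyte and mast cell lists). A gene that these rules select is not reported here. The printed sequences were chosen with 3 exclusions added after the values were seen. Alternatives changed the q threshold, overlap and distance rules, masking, H3K27me3 overlap, motif window and consensus, and gene assignment. Those by GC content and by the gene holding the summit were added after seeing the data.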

Additional observations from a re-analysis of the deposited data

How the results depend on the processing

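No paired analysis was possible because each condition had 1 library, so no replicate could be left out either. The number of members was 932 when a -log10 q of 5 was the minimum and 136 when it was 10, and lay between 1531 and 2325 under the other definitions. GATA was at 28.3% and 34.6% of the members at these thresholds, at 26.2% without peaks over 50% soft-masked, at 15.8% and 33.4% in windows of 100 and 400 bp, at 47.1% with a broader consensus, and at 27.6%, 28.0% and 14.3% in the parts by GC content. RUNX was at 12.1% and 24.5% in windows of 100 and 400 bp and at 40.0% with the shorter consensus, and PU.1 at 1.26%, 4.40% and, with another consensus, 1.79%. Stem, erythroid and megakaryocyte genes were next to 1.21% when the nearest start of any gene type was taken, and neutrophil and macrophage genes next to 1.47% at a -log10 q of at least 10, which is 2 sites. Against the peaks only in the library labelled +DOX, treated the same way, members had more GATA in 14 of 14 settings, and less RUNX and less PU.1 in 11 of 11. The stem, erythroid and megakaryocyte share was higher in 10 of 11 (at a -log10 q of at least 10 it was 2.21% against 2.47%), and the neutrophil and macrophage share in 10 of 11 (with peaks within 1000 bp counted as shared, 0.477% against 0.497%). Against the overlapping peaks, the order of the GATA shares was not the same in all settings. A list of called peaks limits what absence means: a site missing from the other list may lie just below its threshold, and with unknown depth this was not tested.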
